A study of Mus musculus with 38 samples.

Results

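Fragments of mitochondrial RNA were followed through the sperm small RNA libraries of 38 mice by taking 2 rows of each mouse's deposited count table, ensembl-Mt_tRNA (Mt tRNA, mitochondrial tRNA) and ensembl-Mt_rRNA (Mt rRNA, mitochondrial rRNA), out of 25 class rows that held at least 1 read in every mouse. The mice were C57BL6/J males whose mothers received a control diet (CT, 20% protein) or a protein-restricted diet (PR, 8% protein) through pregnancy and lactation. From weaning at 21 days the sons themselves received CT or PR until they were killed at 11 to 13 weeks. The first letters of a group name give the diet before weaning and the last letters the diet after it, so that there were 10 CTCT, 9 CTPR, 9 PRCT and 10 PRPR mice. They came from 21 litters, 11 of CT mothers and 10 of PR mothers, and 17 litters gave 1 mouse to each post-weaning diet. Each library came from the epididymal sperm of 1 mouse and was selected for inserts of 13 to 73 bp, so whole RNAs longer than that were not measured. The libraries held 10709017 to 13496750 reads each, of which 4465281 to 7612603 matched the genome.

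Sperm carry their mitochondria wrapped around the midpiece of the tail, where they supply energy for swimming. The mouse mitochondrial genome is transcribed into long precursors from which tRNAs are cut out, and the cuts at tRNA ends also free the rRNAs and mRNAs that lie between them. A CCA triplet is then added to the 3′ end of each tRNA by an enzyme, as for cytoplasmic tRNAs. Fragments of cytoplasmic tRNAs are an abundant class in mature sperm, and the question put to the data was whether their mitochondrial counterparts varied with the timing of protein restriction.

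In the GENCODE annotation of mm10, the Mt tRNA row corresponds to 22 genes with a summed length of 1501 bases, 14 on the plus and 8 on the minus strand of chrM. The Mt rRNA row corresponds to 2 genes of 2537 bases in all, both on the plus strand. They are mt-Rnr1 at chrM:70-1024, which encodes the rRNA of the small mitoribosomal subunit, and mt-Rnr2 at chrM:1094-2675, which encodes that of the large subunit. The tRNA genes were 59 to 75 bases long, and 21 of the 22 were no longer than the largest selected insert. With 3 bases added for CCA, 18 were. Both sets were poor in G and C, with 34.2% in the tRNA genes and 35.6% in the rRNA genes. The counts were given per class, so which of these genes supplied the fragments was not measured.

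The 2 rRNA genes and the 3 tRNA genes around them show how closely the members of both rows lie together, and mt-Ts2 is shown as the shortest tRNA gene. The sequences are the plus strand of mm10 from the GENCODE transcripts, 5′ to 3′, with the anticodon in capitals, and for the rRNAs only the first 30 bases are given. mt-Tf (phenylalanine) lies at chrM:1-68, mt-Tv (valine) at chrM:1025-1093, mt-Tl1 (leucine) at chrM:2676-2750 and mt-Ts2 (serine) at chrM:11613-11671.
mt-Tf: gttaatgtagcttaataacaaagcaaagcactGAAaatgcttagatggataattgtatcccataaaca
mt-Rnr1: aaaggtttggtcctggccttataattaatt
mt-Tv: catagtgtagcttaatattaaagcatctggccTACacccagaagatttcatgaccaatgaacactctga
mt-Rnr2: actaatcctagccctagccctacacaaata
mt-Tl1: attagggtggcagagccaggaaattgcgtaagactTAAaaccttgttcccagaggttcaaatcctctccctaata
mt-Ts2: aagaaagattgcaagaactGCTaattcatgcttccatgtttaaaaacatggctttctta
mt-Tv began on the base after mt-Rnr1 ended, and mt-Rnr2 and mt-Tl1 each began on the base after the gene before them. Of the 22 tRNA genes, 1 ended in CCA in the genome, so for the others a read that runs into the added CCA leaves the genomic sequence at its 3′ end. The tables held 0 rows for Mt tRNA or Mt rRNA reads that do not match the genome, so the values below are for genome-matching reads.

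Levels are given as the percentage of genome-matching reads in a mouse. Over the 38 mice, ensembl-Mt_tRNA made up 1.10% at the lowest, 4.73% at the median and 9.63% at the highest. ensembl-Mt_rRNA made up 0.545% at the lowest, 1.27% at the median and 3.59% at the highest. Mt tRNA reads outnumbered Mt rRNA reads in 36 mice, and the other 2, CTCT mouse 02A6 and CTPR mouse 02A8, were littermates. Per kilobase of annotated gene, Mt tRNA reads exceeded Mt rRNA reads by a median of 5.86-fold, with a range over mice from 0.770-fold to 12.4-fold. The 95% Wilson interval of a percentage was at most 0.0471 percentage points wide for Mt tRNA and 0.0340 for Mt rRNA. These intervals cover counting error only, since PCR copies were not told apart, and they were far narrower than the spread between mice.

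Mt tRNA fragments were lowest in the group that never met protein restriction. In CTCT mice they made up 3.23% ± 1.60 (SD, n = 10), with a lowest value of 1.10%, a median of 3.18% and a highest of 5.74%. In CTPR mice they made up 5.34% ± 2.24 (SD, n = 9), from 2.80% through a median of 4.92% to 9.63%. In PRCT mice they made up 5.64% ± 1.51 (SD, n = 9), from 3.47% through 5.86% to 8.53%. PRPR mice held both low and high values. They averaged 5.07% ± 2.76 (SD, n = 10), from 1.21% through 4.45% to 9.24%. The 4 ranges overlapped, and the PRCT group was the tightest, with a coefficient of variation of 26.8% against 54.5% in PRPR mice.

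**Figure D1:**
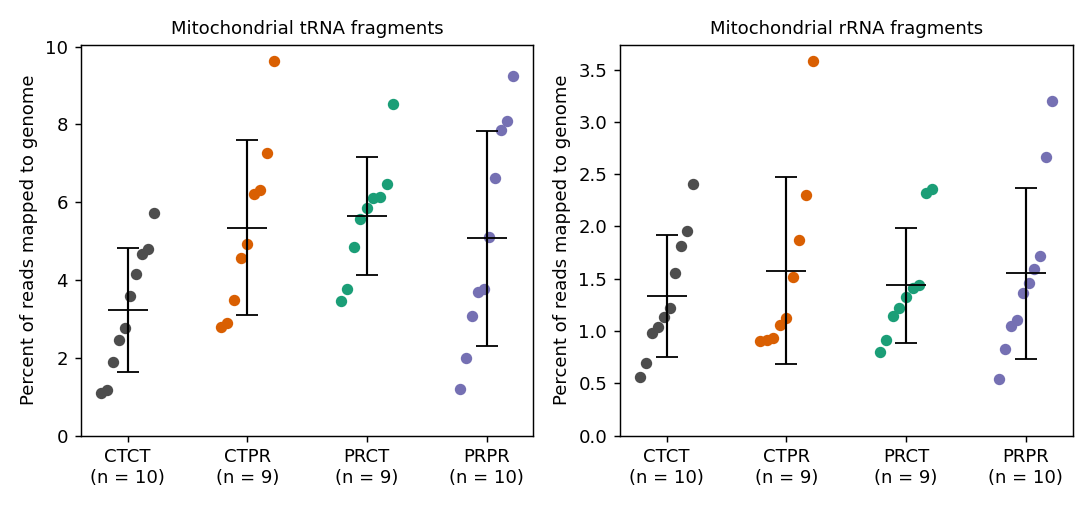
Percentage of genome-matching reads (y axis) in each mouse (points) by diet group (x axis), for Mt tRNA on the left and Mt rRNA on the right, with the mean and SD as bars. The Mt tRNA mean was 3.23% in CTCT mice and 5.07% to 5.64% in the other groups, whereas the Mt rRNA means lay between 1.34% and 1.58%.

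The difference from CTCT was largest for the PRCT group, at 2.41 percentage points, and all 9 PRCT mice lay above the CTCT median (two-sided exact permutation test, P = 0.00407). Adjusted by Benjamini-Hochberg for 25 class rows in 6 pairs of groups, it did not pass (adjusted P = 0.301), and 8.00% of class rows had an unadjusted P under 0.05 in this comparison. CTPR mice were 2.11 points above CTCT, with 7 of 9 above the CTCT median (exact permutation P = 0.0278, adjusted P = 0.313), where 20.0% of class rows had an unadjusted P under 0.05. PRPR mice were 1.83 points above CTCT (permutation test, P = 0.0846, adjusted P = 0.496), where 4.00% of class rows had an unadjusted P under 0.05. These 3 comparisons share the CTCT mice. Among the 3 restricted groups the means differed by at most 0.573 points, less than the SD within any of them, and no pair passed (smallest exact permutation P = 0.585, adjusted P = 0.984).

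The differences from CTCT moved with which litters were counted. Without the 5 litters 02A, 07C, 08G, 09H and 14A, the PRCT difference was 1.53 points, the PRPR difference 0.869 points and the CTPR difference 2.09 points. This exclusion was chosen after seeing the data, so these 3 values are descriptions without a test. Without the 4 mice with irregular tables, which were incomplete or did not add up (35F2, 07C3, 31A3 and 08G5), the PRPR difference was 1.18 points (exact permutation P = 0.297). The labels put mouse 47I1 in CTCT and its littermate 47I2 in CTPR, whereas the study's own list has them the other way round. With the 2 exchanged, the CTPR difference was 2.53 points (exact permutation P = 0.00586, adjusted P = 0.248) and the PRCT difference 2.61 points (exact permutation P = 0.00194, adjusted P = 0.145).

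A count model gave the same order. In edgeR's quasi-likelihood test the Mt tRNA log2 fold change against CTCT was 0.80 ± 0.32 (SE) in PRCT (adjusted P = 0.0705), 0.72 ± 0.32 in CTPR (adjusted P = 0.107) and 0.65 ± 0.31 in PRPR (adjusted P = 0.191). In that test 19.2%, 15.4% and 15.4% of the 26 classes tested had an adjusted P under 0.05 in these comparisons, and Mt tRNA was not among them. Unadjusted, its P was 0.0163 in PRCT, 0.0289 in CTPR and 0.0442 in PRPR, under 0.05 as for 26.9%, 38.5% and 23.1% of the classes. Without the 4 mice with irregular tables, 0 classes passed in any of these comparisons by edgeR's adjusted P (2, 5 and 2 had an unadjusted P under 0.05 in CTPR, PRCT and PRPR, and DESeq2 on all mice called 1, 1 and 0). Between PRPR and CTPR the log2 fold change was -0.08 ± 0.32 (SE), with 7.69% of the classes at an unadjusted P under 0.05 and Mt tRNA not among them (adjusted P = 0.985). Mt tRNA passed edgeR's threshold in CTPR and PRCT when TMM factors were added (adjusted P = 0.0390 and 0.0336), where 7 and 6 of the 26 classes passed. It also passed in both with mice 47I1 and 47I2 exchanged (adjusted P = 0.0389 and 0.0274), where 5 and 6 of the 26 classes passed. In PRCT it also passed without litter 47I (adjusted P = 0.0463), where 6 of the 26 classes passed. Over all alternatives, the adjusted P ranged from 0.0389 to 0.513 for CTPR and from 0.0274 to 0.449 for PRCT.

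Mt rRNA fragments had close means in the 4 groups. They made up 1.34% ± 0.586 (SD, n = 10) in CTCT mice, from 0.565% through a median of 1.17% to 2.41%. In CTPR mice they made up 1.58% ± 0.897 (SD, n = 9), from 0.909% through 1.12% to 3.59%. In PRCT mice they made up 1.44% ± 0.553 (SD, n = 9), from 0.801% through 1.32% to 2.36%. The PRPR values averaged 1.55% ± 0.818 (SD, n = 10), from 0.545% through 1.41% to 3.20%. The largest difference between 2 groups was 0.243 points (CTPR against CTCT), and no pair passed (smallest permutation P = 0.505 with 10 mice a group, adjusted P = 0.982). The edgeR log2 fold changes against CTCT were 0.24 ± 0.31 (SE) in CTPR, 0.11 ± 0.31 in PRCT and 0.22 ± 0.30 in PRPR, none with an adjusted P under 0.565.

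Cytoplasmic tRNA fragments, the class with which Mt tRNA shares its role in translation, made up 9.57% ± 4.08 (SD, n = 10) of reads in CTCT mice and 15.9% ± 5.98 (n = 9) in CTPR. In PRCT they made up 12.02% ± 6.88 (n = 9) and in PRPR 11.7% ± 4.32 (n = 10). The highest cytoplasmic tRNA mean was thus in CTPR, and the highest Mt tRNA mean in PRCT. The CTPR difference from CTCT was 6.36 points (exact permutation P = 0.0148, adjusted P = 0.305), and the PRCT difference was 2.45 points (exact permutation P = 0.356). In PRCT mouse 31A3, whose table was irregular, the cytoplasmic tRNA row held 352056 reads, whereas its isoacceptor entries summed to 469889. The row was used here.

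A class can have a lower percentage from fewer cells that carry it, less of it per cell or more of another class. These cannot be told apart. Small nucleolar RNA, the class with the highest mean, took 6.30% to 47.2% of reads. It averaged 27.5% in CTCT, 15.9% in CTPR, 26.6% in PRCT and 25.1% in PRPR mice, and over the 38 mice its deviations from the group means had a Pearson r of -0.48 with those of Mt tRNA and -0.14 with those of Mt rRNA. As a percentage of the reads outside small nucleolar RNA, Mt tRNA was above CTCT by 3.13 points in PRCT (exact permutation P = 0.00282, adjusted P = 0.145), 1.82 in CTPR (exact permutation P = 0.107) and 2.02 in PRPR (permutation P = 0.106). Ratios between the classes do not depend on small nucleolar RNA.

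The ratio of Mt tRNA to Mt rRNA reads ranged from 0.455 in mouse 02A6 to 7.31 in PRCT mouse 59L1. On the log2 scale it averaged 1.21 ± 1.03 (SD, n = 10) in CTCT, 1.81 ± 0.92 (n = 9) in CTPR, 2.01 ± 0.42 (n = 9) in PRCT and 1.64 ± 0.49 (n = 10) in PRPR. The CTCT mean of the log2 ratio was thus the lowest, and its SD on this scale the largest, whereas on the ratio itself the SD was larger in CTPR (2.09) than in CTCT (1.30). The lowest, median and highest log2 ratios were -1.14, 1.71 and 2.08 in CTCT, -0.04, 1.69 and 2.77 in CTPR, 1.38, 1.98 and 2.87 in PRCT, and 1.05, 1.69 and 2.54 in PRPR. The CTCT mean was drawn down by its 3 lowest mice, while its median was close to those of CTPR and PRPR. PRCT exceeded CTCT by 0.80 on the log2 scale (exact permutation P = 0.0317, adjusted over 12 ratio comparisons P = 0.381). Without litters 02A, 07C, 08G, 09H and 14A, left out after their values were seen, this difference was 0.44, given without a test. No other pair had a P under 0.05, and the nearest was PRPR, 0.38 below PRCT (exact permutation P = 0.0895, adjusted P = 0.397).

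Mt tRNA and cytoplasmic tRNA reads were compared as read numbers, without a correction for length. Cytoplasmic tRNA reads were the more numerous in 35 mice, with a median of 2.68 cytoplasmic reads for each Mt tRNA read over all mice. The other 3 mice were CTCT mouse 09H7 and PRCT mice 08G3 and 14A4, with 1.70, 1.23 and 1.28 Mt tRNA reads for each cytoplasmic one. The log2 ratio averaged -1.61 ± 1.05 (SD, n = 10) in CTCT, -1.56 ± 0.79 (n = 9) in CTPR, -0.91 ± 0.85 (n = 9) in PRCT and -1.36 ± 0.90 (n = 10) in PRPR. CTPR and CTCT differed by 0.05 only, so Mt tRNA and cytoplasmic tRNA stood in nearly the same mean ratio in both groups, while PRCT lay 0.70 above CTCT. Neither difference passed (exact permutation P = 0.916 and 0.132, adjusted P = 0.916 and 0.397). With tRNA counted as the sum of its isoacceptor entries, all 7 results recomputed for this ratio kept their direction and their side of the threshold.

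**Figure D2:**
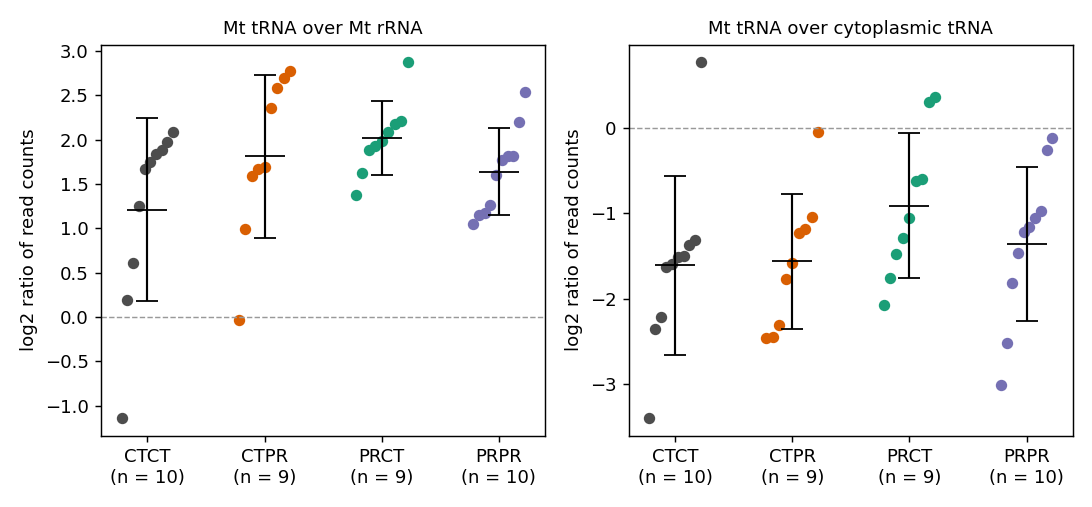
Log2 ratio of read counts (y axis) in each mouse (points) by diet group (x axis), Mt tRNA over Mt rRNA on the left and over cytoplasmic tRNA on the right, with the mean and SD as bars and equal counts as a dashed line. In the left panel only mice 02A6 and 02A8 lie below the line, and in the right panel only mice 09H7, 08G3 and 14A4 lie above it.

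Whether post-weaning restriction acted differently on sons of CT and of PR mothers was tested directly, with the later diet permuted among sons of the same kind of mother. For Mt tRNA, the post-weaning PR diet went with 2.11 points more in sons of CT mothers and with 0.573 points less in sons of PR mothers. The difference between these effects was 2.68 points (two-sided permutation P = 0.0580, adjusted over 25 classes and 2 ratios P = 0.469), and 4.00% of the class rows had an unadjusted P under 0.05. Between littermates it was 2.09 points (exact permutation of 8 against 9 litters, P = 0.165, adjusted P = 0.446), and with mice 47I1 and 47I2 exchanged it was 3.10 points (permutation P = 0.0272, adjusted P = 0.2995). The log2 ratio of Mt tRNA to Mt rRNA had the same pattern, 0.60 higher and 0.38 lower, a difference of 0.98 (permutation P = 0.0509, adjusted P = 0.469). Between littermates that ratio difference was 0.81 (exact permutation, P = 0.0339, adjusted P = 0.250). For Mt rRNA the difference between the effects was 0.127 points (permutation P = 0.790), and for Mt tRNA over cytoplasmic tRNA it was 0.49 on the log2 scale (permutation P = 0.408). Between littermates these were 0.0722 points and 0.43 (exact permutation P = 0.750 and 0.219).

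The Mt rRNA percentages of littermates were correlated in both kinds of litter, and the correlation passed the adjusted threshold in CT litters. Over the 8 CT litters with a mouse in both groups, the Mt rRNA percentages of brothers had a Pearson r of 0.91 (exact permutation P = 0.000446, adjusted over all classes, ratios and both kinds of litter P = 0.0241) and a Spearman rho of 0.93 (exact permutation P = 0.00223, adjusted P = 0.120). In CT litters 4.00% of the class rows passed the adjusted threshold for r. This call was lost, at r = 0.86 to 0.92, with log2 percentages (adjusted P = 0.0847) and without litter 35F, whose CTCT mouse had an irregular table (adjusted P = 0.139). It was also lost without litters 02A and 09H, left out after their values were seen (adjusted P = 0.281). Over the 9 PR litters r was 0.89 (exact permutation P = 0.00410, adjusted P = 0.0588) and rho 0.77 (exact permutation P = 0.0214, adjusted P = 0.193), where 0.00% of the class rows passed and 16% had an unadjusted P under 0.05. Mt rRNA had the second highest r of 25 class rows in CT litters and the highest in PR litters, where the medians over class rows were 0.53 and 0.38. For Mt tRNA, r between brothers was -0.31 in CT litters (exact permutation P = 0.477) and 0.37 in PR litters (exact permutation P = 0.336). Whether Mt rRNA and Mt tRNA differed in r was not tested.

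The likeness between brothers rested in part on the litters with the highest Mt rRNA. Without the 2 litters farthest from the median, which were 02A and 09H in CT and 14A and 08G in PR, r was 0.86 in CT and 0.44 in PR litters. Mice of a pair were also counted as deviations from their group means, over 17 litters. In Mt rRNA the SD within litters was 0.293 points, and the litter means varied with an SD of 0.706 points. In Mt tRNA the SD was 1.97 points within litters and 1.53 points for the litter means. A litter mean also carries part of the spread within litters, so the SD of the means is not a spread between litters alone. In Mt tRNA the SD within litters was the larger, and in Mt rRNA the SD of the litter means.

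In CT litters the Mt tRNA values of brothers split evenly, 4 litters each way. The PR-fed brother was higher by 6.86 points in litter 35F, 4.31 in 49K, 3.85 in 57P and 2.40 in 02A. It was lower in 09H, 45L, 53M and 47I, with differences of -0.105, -0.819, -1.25 and -1.98 points. The mean difference was 1.66 points ± 3.17 (SD, 8 litters), which did not pass (exact sign-flip permutation P = 0.188, smallest possible P = 0.00781). The comparison of all CTPR with all CTCT mice had an unadjusted P of 0.0278 (exact permutation), and within litters it did not stay under 0.05. In PR litters the mean difference was -0.429 points ± 2.73 (SD, 9 litters), from -4.89 in 51O to 4.38 in 46I (exact sign-flip permutation P = 0.699). The PR-fed brother had the higher Mt rRNA in 8 of 9 PR litters, with a mean difference of 0.166 points ± 0.434 (SD), and in 5 of 8 CT litters, with 0.238 points ± 0.446. Neither passed (exact sign-flip permutation P = 0.285 and 0.148). The Mt tRNA to Mt rRNA ratio was lower in the PR-fed brother in 7 of 9 PR litters, by 0.39 on average on the log2 scale (exact sign-flip permutation P = 0.0820, adjusted P = 0.387).

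**Figure D3:**
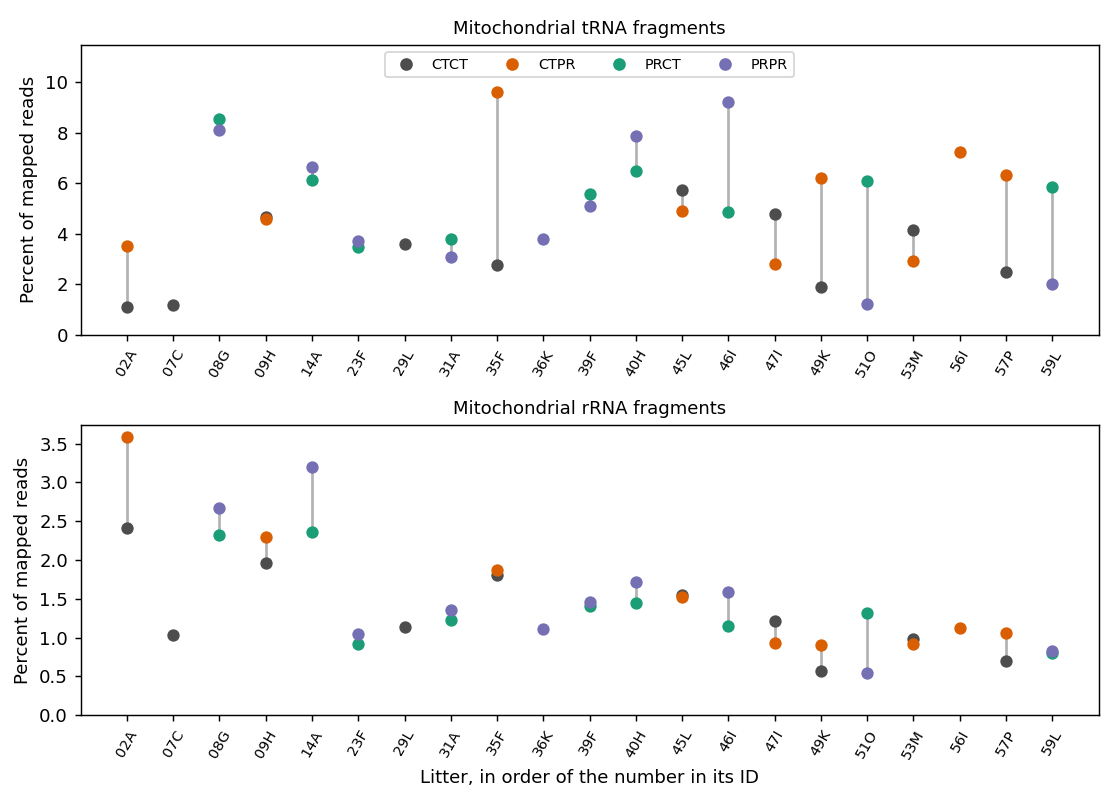
Percentage of genome-matching reads (y axis) for each mouse, arranged by litter in the order of the number in its ID (x axis), coloured by diet group, with brothers joined by a line. In Mt rRNA, brothers differ by 0.0313 points in litter 59L and by 1.18 points in 02A, and in Mt tRNA by 0.105 points in 09H and by 6.86 points in 35F.

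Mt rRNA and the ratio also varied with the number in the litter's ID, which the labels do not explain. Over 21 litters, the Spearman rho with that number was -0.67 for Mt rRNA, 0.18 for Mt tRNA, 0.78 for the log2 ratio of Mt tRNA to Mt rRNA and 0.62 for cytoplasmic tRNA. These correlations are descriptions of litter means. The 9 mice of the 5 lowest-numbered litters (02A, 07C, 08G, 09H and 14A) held 2.43% Mt rRNA on average, from 1.04% in 07C3 to 3.59% in 02A8, against 1.18% in the other 29 mice, from 0.545% to 1.87%. Their mean Mt tRNA was 4.93% against 4.74%. These litters were singled out after their values were seen, so the difference between the 9 mice and the other 29 was not tested. They occurred with both maternal diets, 3 CT and 2 PR litters. In the same 9 mice a mean of 50.7% of reads matched the genome, against 55.1% in the others, and over all mice the deviations of that share had a Pearson r of -0.67 with those of Mt rRNA and -0.11 with those of Mt tRNA. Its part in the level of Mt rRNA was not tested.

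Within a diet group no mice are brothers, and the relation between classes was taken there. Mt tRNA and Mt rRNA percentages had a Pearson r of 0.06 in CTCT (permutation P = 0.875) and -0.10 in CTPR (exact permutation P = 0.779). In PRCT mice r was 0.68 (exact permutation P = 0.0414, adjusted over 12 relations P = 0.248) with rho 0.73 (exact permutation P = 0.0311, adjusted P = 0.187), and it was 0.32 without mice 08G3 and 23F4, so it rested on these. In PRPR mice r was 0.70 (permutation P = 0.0198, adjusted P = 0.238) with rho 0.85 (permutation P = 0.00311, adjusted P = 0.0373), and it was 0.76 without mice 46I3 and 08G5. The rank relation in PRPR was the one of 12 that passed. Whether the groups differed in r was not tested.

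Leaving out the 5 low-numbered litters, Mt tRNA and Mt rRNA had r = 0.50 in CTCT, 0.67 in CTPR, 0.41 in PRCT and 0.87 in PRPR. These litters have the lowest ID numbers and were chosen after their values, Mt rRNA among them, were seen. The r values are thus descriptions and no test of them is given.

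**Figure D4:**
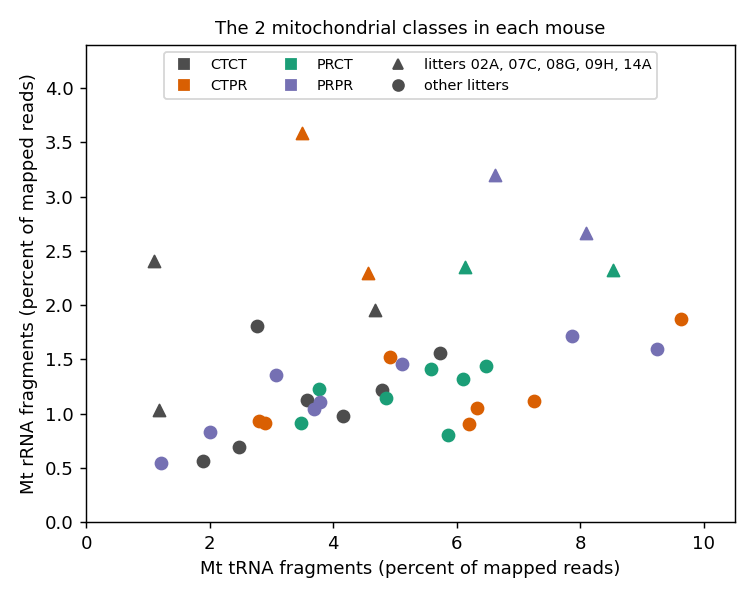
Mt tRNA (x axis) against Mt rRNA (y axis), each as a percentage of genome-matching reads, for the 38 mice coloured by diet group, with triangles for litters 02A, 07C, 08G, 09H and 14A. The triangles lie above the other mice except for 07C3, at 1.04% Mt rRNA, and the circles rise from 0.545% Mt rRNA at 1.21% Mt tRNA to 1.87% at 9.63%.

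Mt tRNA and cytoplasmic tRNA had positive r in all 4 groups, 0.39 in CTCT, 0.51 in CTPR, 0.15 in PRCT and 0.53 in PRPR, and none passed (smallest permutation P = 0.119 with 10 mice, adjusted P = 0.397). Without the 5 low-numbered litters r was 0.89, 0.62, 0.77 and 0.84. These are again descriptions without a test, since the litters were chosen after their values were seen and averaged 7.82% cytoplasmic tRNA against 13.6% in the others. Mt rRNA and cytoplasmic tRNA had r of 0.03, -0.16, -0.53 and -0.14 in the same order of groups, none of which passed (smallest exact permutation P = 0.152). Percentages of the same library share a denominator, so part of any relation between them is built in.

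Among 476 other genome-matching classes and class entries with at least 10 reads in every mouse, those whose percentages ran most closely with Mt tRNA over the 38 mice were 5 piRNA entries. piRNAs are germline small RNAs that silence transposons, and the entry names come from a piRNA database. The Spearman rho was 0.92 for piR-mmu-10813768, 0.91 for piR-mmu-2637740, 0.90 for piR-mmu-8437470, 0.89 for piR-mmu-868936 and 0.88 for piR-mmu-22762543, at mean levels of 0.00515% to 0.0222% of genome-matching reads. For all 305 piRNA features, the median rho with Mt tRNA was 0.28. The closest to Mt rRNA were piR-mmu-5414711 (rho 0.78), piR-mmu-3046000 (0.78), piR-mmu-3046001 (0.75), piR-mmu-6534991 (0.73) and tRNA-SeC-TCA (0.71), the tRNA for selenocysteine. The lists shared no entry. Cytoplasmic tRNA isoacceptors had a median rho of 0.35 with Mt tRNA and -0.07 with Mt rRNA. The class row of mitochondrial DNA entries of Rfam, a small row of 0.00540% to 0.143% of reads, had rho 0.79 with Mt tRNA and 0.50 with Mt rRNA, and the 2 members themselves had rho 0.45 with each other. These are correlations over mice that share litters and a common denominator, and they are given without a test.

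The label of the samples was checked with miRNAs known from germ cells and from other cells of the epididymis. mir-34c and mir-881, which are abundant in male germ cells, were read in all 38 mice, with medians of 2448 and 2113 reads. The other germ cell miRNAs followed had medians from 25.5 reads (mir-880, read in 35 mice) to 223 (mir-465c). The paper reports high sperm purity in all groups, from DNA methylation at imprinting control regions and a representative RNA trace without ribosomal RNA peaks. Markers of other cells were also present in these libraries. mir-143, a miRNA of smooth muscle, had a median of 7940 reads and mir-200a, a miRNA of epithelium, one of 1206, while mir-451a of red blood cells had 35 and mir-144 of the same cells was read in 13 mice. The other blood and immune cell miRNAs followed, mir-223, mir-142a and mir-150, had medians of 61, 38 and 4.5 reads. mir-145a of smooth muscle had a median of 586.5, and the other epithelial miRNAs had medians from 65.5 (mir-429) to 1032 (mir-200c).

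The summed level of the 10 germ cell miRNAs, in RPM (reads per 1000000 genome-matching reads), ranged from 42.8 to 1739 in CTCT (median 637), from 206 to 2693 in CTPR (median 1529), from 376 to 1504 in PRCT (median 924) and from 309.5 to 2494 in PRPR (median 767). It was higher in CTPR than in CTCT by 786 RPM (exact permutation P = 0.0305, unadjusted). Its deviations from the group means had a Pearson r of 0.54 with those of Mt tRNA and -0.35 with those of Mt rRNA. The 5 epithelial, 2 smooth muscle and 5 blood cell miRNAs had r of 0.15, 0.22 and 0.18 with Mt tRNA and -0.44, -0.40 and -0.39 with Mt rRNA, with 38 mice each. The means of these 3 sums were also higher in CTPR than in CTCT, by 386, 1353 and 18.6 RPM, and none of these differences had a P under 0.05 (exact permutation P = 0.168, 0.106 and 0.101). In PRCT and PRPR none of them had a P under 0.05 against CTCT either (smallest exact permutation P = 0.440). The part of any of these cell types in the Mt tRNA and Mt rRNA levels was not tested.

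Reads that do not match the genome could be followed for 2 neighbouring classes. Reads of cytoplasmic tRNA 3′ ends with CCA that do not match the genome equalled 0.437% to 3.26% of the reads of this class and of all genome-matching tRNA reads together, and averaged 1.19% in CTCT, 0.997% in CTPR, 1.10% in PRCT and 1.19% in PRPR. In the Rfam mitochondrial DNA row, the median unmatched share was 17.2% in CTCT, 20.9% in CTPR, 17.98% in PRCT and 19.9% in PRPR. Over all mice this share ranged from 11.1% to 43.3%. Its group means, which the tests compared, were instead highest in CTCT. In that group mice 02A6 and 07C3 had 43.3% and 41.5%, and the next highest value was 22.85% in 09H7. Mouse 07C3, whose rows of unmatched reads were incomplete, was kept in both shares and their tests. The other group means differed from the CTCT mean by -0.587 points in CTPR, -4.545 in PRCT and -1.894 in PRPR. No comparison with CTCT passed for either share (smallest exact permutation P = 0.332, adjusted P = 0.980).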

How the data were processed

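The authors annotated the small RNA reads with the SPORTS 1.0 pipeline against mm10 and several sequence databases, and deposited raw read counts per class for each mouse, with no normalization and no pooling. Database versions and the order of assignment are not given in the sources used here. Groups were taken from the sample labels and litters from the mouse IDs in them. Class counts were divided by the genome-matching reads of the mouse. The members and lists were chosen with earlier results of these data known.

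Group means were compared by two-sided permutation, by full enumeration (exact) when either group had under 10 mice and from 100000 draws in the other cases. P-values were adjusted over all class rows. Mice whose IDs share a litter code were paired: their deviations from group means correlated at 0.83 over 17 litters for Mt rRNA, 0.42 for cytoplasmic tRNA and 0.07 for Mt tRNA. Class counts were also tested with edgeR 4.0.16 (glmQLFit and glmQLFTest, genome-matching reads as library size, all groups in 1 fit), which kept 26 of 29 class rows after its filter on low counts, and with DESeq2 1.42.0 as an alternative, in R 4.3.3. The tests were checked on simulated data. Other steps used scipy 1.17.1 in Python 3.11.15.

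Named beside the 2 rows and cytoplasmic tRNA were the 5 features with the highest Spearman rho to each row and the summed marker miRNAs. In 3 mice the class rows did not sum to near the genome-matching reads. The sum minus those reads was 613236 in 35F2, -1242386 in 08G5 and -119111 in 31A3. In mouse 07C3 the rows of unmatched reads were incomplete. These 4 mice with irregular tables were kept, and left out in an alternative. Within each diet group, all pairs of libraries differed by more than sampling noise. Single mice, litter 47I and 5 low-numbered litters were also left out in turn, the last chosen after seeing the data.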

Additional observations from a re-analysis of the deposited data

Results flagged for a closer look

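In 1 case a mouse stood apart from the rest of its group by more than Dixon's 95% limit for the gap to the nearest mouse. CTCT mouse 09H7 had a log2 ratio of Mt tRNA to cytoplasmic tRNA of 0.76, with 4.67% Mt tRNA and 2.75% cytoplasmic tRNA, the lowest cytoplasmic tRNA percentage of the 38 mice. Its CTPR brother 09H5 had the highest ratio of its own group, -0.05. The gap was judged for 5 measures in 4 groups, and chance alone flags about 1 in 20 groups.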

How the results depend on the processing

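Of 457 values recomputed with another setting, not counting those without a single mouse, 398 kept their direction and their side of the threshold, or a count within 1.5 times. None of the permutation comparisons of Mt tRNA or Mt rRNA percentages between groups passed an adjusted P under 0.05 under any setting. Pairing littermates (replicate block) changed no call for Mt tRNA or Mt rRNA, and in edgeR's fit of CTPR and CTCT alone, 3 classes were called without pairing and 0 with it, the latter on the 8 complete litters only (8 and 2 at an unadjusted P under 0.05, and 1 called by DESeq2 without pairing). The edgeR log2 fold change of Mt tRNA against CTCT passed with TMM factors (0.90 in CTPR, 0.93 in PRCT), with 47I1 and 47I2 exchanged (0.87 and 0.89) and, in PRCT, without litter 47I (0.88). In these comparisons 5 to 7 of the 26 classes passed. Classes called numbered 4, 5, 4, 0 and 0 for CTPR, PRCT and PRPR against CTCT and for PRCT and PRPR against CTPR. They numbered 0, 0, 0, 1 and 1 without the 4 mice with irregular tables and 1, 1, 0, 1 and 1 with DESeq2, 7 with TMM in the first, and 3 and 4 without the 5 low-numbered litters in the last 2. On log2 percentages the correlation of Mt tRNA with Mt rRNA in PRPR passed (0.86). Without those litters, chosen after seeing the data, correlations of Mt tRNA were 0.87 with Mt rRNA in PRPR and 0.89 and 0.84 with cytoplasmic tRNA in CTCT and PRPR, given without a test. The Mt rRNA correlation of CT brothers no longer passed without them (0.86), without litters of mice with irregular tables (0.92) or on log2 percentages (0.86). The remaining changes were of sign, in values that passed in neither setting. Without the 5 litters, PRCT minus CTPR was -0.070 for the log2 ratio to Mt rRNA, -0.15 for edgeR's Mt tRNA and -0.558 points for Mt tRNA. The log2 ratio to cytoplasmic tRNA was -0.065 for CTPR and -0.043 for PRPR minus CTCT, and Mt rRNA in PRPR minus CTPR was 0.022 (edgeR) and 0.0185 points. Correlations became 0.20 (Mt rRNA with tRNA, CTPR), 0.59 (PRPR) and 0.67 (Mt tRNA with Mt rRNA, CTPR), those of the ratio to Mt rRNA between brothers -0.40 (CT) and -0.12 (PR), and the difference of CT brothers in the ratio to tRNA -0.000457. Without mice with irregular tables, the values were -0.030 (ratio to tRNA, CTPR minus CTCT), -0.034 (edgeR) and -0.0341 points (Mt rRNA, PRPR minus PRCT), -0.00282 (correlation of Mt tRNA with tRNA, PRCT) and -0.018 (ratio to tRNA, CT brothers). Mt rRNA in PRPR minus CTPR was 0.066 with DESeq2, 0.024 with TMM, 0.037 with the class sum as library size and 0.0406 points with it as denominator. Outside small nucleolar RNA, it was 0.139 points, Mt rRNA in PRCT minus CTPR 0.0718, Mt tRNA in PRPR minus CTPR 0.199, the difference between post-weaning effects on Mt rRNA -0.00772, and correlations with tRNA -0.49 (Mt rRNA, CTCT) and -0.28 (Mt tRNA, PRCT). Without litter 47I, Mt tRNA in PRCT minus CTPR was -0.00474 (edgeR) and -0.0186 points. With 47I1 and 47I2 exchanged and on log2 percentages, Mt rRNA with tRNA in CTCT was -0.048 and -0.055, and Mt tRNA with Mt rRNA in CTPR 0.020 on log2 percentages. Without 1 mouse at a time, sign changed in the log2 ratios to Mt rRNA in PRCT minus CTPR (-0.030 to 0.32) and to tRNA in CTPR minus CTCT (-0.15 to 0.31), in Mt rRNA in CTPR minus CTCT (-0.00764 to 0.363), PRCT minus CTCT (-0.0135 to 0.221), PRCT minus CTPR (-0.257 to 0.109), PRPR minus CTPR (-0.209 to 0.225) and PRPR minus PRCT (-0.0672 to 0.231), in Mt tRNA in PRCT minus CTPR (-0.0624 to 0.834) and PRPR minus CTPR (-0.737 to 0.262), and in the difference between effects on Mt rRNA (-0.124 to 0.311). The cause of these changes was not tested. A sum over databases was not run, since 1 database lists these classes.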
